A study of Mus musculus with 6 samples.

Results

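The genes described here are 35 genes that act at the G1/S transition and in DNA replication: cyclin E, Cdk2 and E2f1, the factors that load and start the replicative helicase, the polymerase and clamp machinery, and the enzymes that make nucleotides and rebuild chromatin behind the fork. They were taken from a fixed list of symbols, chosen with earlier results of these data known. Each gene was read from its brightest probe set among those that the platform annotation pairs with exactly 1 symbol. Of the 35, 34 had such a probe set, out of 18193 genes on the array with one, and all 34 passed the filter on low signal. Chaf1a had no probe set with 1 symbol and has no value here.

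In late G1, cyclin E with CDK2 relieves RB-mediated repression of E2F factors, and E2F drives transcription of many of the genes on this list. The origin recognition complex, Cdc6 and Cdt1 load the MCM2-7 helicase onto origins in G1, and Cdc45, the GINS complex and Mcm10 turn it into an active helicase at the start of S phase. The transcripts of this group are known to be high in cycling cells and low in quiescent ones, so in cultured tumour cells such as melanoma lines they are usually well expressed.

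RNA came from B16-F1, a melanoma cell line from C57BL/6J mice, with a stably integrated lentivirus that expressed a short hairpin RNA (shRNA). It targeted macroH2A1 or macroH2A2, histone H2A variants with a large macro domain, or, in the control line, GFP. All 3 lines therefore carried a lentiviral hairpin, and each target was represented by 1 stable line grown in serum-containing medium. Each line gave 2 arrays that the series description calls independent biological replicates, and these are named replicate 1 and replicate 2 here. The arrays that share a number form replicate set 1 and replicate set 2, but the labels do not say what a number marks. The macroH2A1 and macroH2A2 comparisons use the same 2 control arrays.

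Promoter sequence is shown first because E2F sites are the regulatory element best known for this group. The reference table (RefSeq, build GRCm38.p6) held 30 of the 35 genes, and Ccne2, Mcm4, Gins1, Gins2 and Pole were not in it. It gave 35 windows of 300 bases, from 250 bases before to 50 bases after an annotated start. The E2F-like words TTTCGCGC, TTTGGCGC, TTTCCCGC and TTTGCCGC were searched on both strands. At least 1 of them was present in 12 of these 35 windows (34.3%), against 2.26% of all 32851 windows. The 12 windows belong to Cdk2, Orc1, Cdc6, Cdt1, Mcm3, Mcm5, Mcm6, Mcm7, Pola1, Rfc3, Lig1 and Uhrf1. The word CCAAT, the core of the NF-Y motif, was present on either strand in 22 of the 35 windows (62.9%) against 37.4% of all windows, and 1 E2F-like match overlapped a CCAAT. A match describes the letters of the window and is not a measured binding site. The stretches below lie upstream of the annotated start, and capitals mark the E2F-like letters. Mcm5 (chr8:75109309-75109428, plus strand) and Mcm6 (chr1:128359736-128359855, minus strand) are shown because both hold the same 12-letter run, in which 2 of the words overlap, on opposite strands: TTTCGCGCCAAA in Mcm5 is the reverse complement of TTTGGCGCGAAA in Mcm6. Cdc6 (chr11:98907951-98908070, plus strand) and Uhrf1 (chr17:56304083-56304202, plus strand) are shown because they are among the members with the largest differences within a replicate set.
Mcm5: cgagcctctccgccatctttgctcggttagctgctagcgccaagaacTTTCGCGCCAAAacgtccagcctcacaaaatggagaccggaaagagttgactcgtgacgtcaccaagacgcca
Mcm6: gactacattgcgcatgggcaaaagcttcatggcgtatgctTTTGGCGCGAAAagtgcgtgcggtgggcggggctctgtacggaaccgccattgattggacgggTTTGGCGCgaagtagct
Cdc6: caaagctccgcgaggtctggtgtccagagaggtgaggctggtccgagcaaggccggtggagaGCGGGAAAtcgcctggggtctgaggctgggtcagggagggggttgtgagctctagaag
Uhrf1: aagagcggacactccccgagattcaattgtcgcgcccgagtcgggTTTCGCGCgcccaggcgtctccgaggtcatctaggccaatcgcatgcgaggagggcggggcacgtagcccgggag

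The values are linear microarray intensities, called signals here, scaled to a 2% trimmed mean of 150 per array. Median signals ranged from 15.1 to 24.6 and were highest on control replicate 1. In the order control, macroH2A1 shRNA and macroH2A2 shRNA they were 24.6, 20.6 and 19.5 for replicate 1. For replicate 2 they were 15.1, 15.4 and 16.2, so every replicate 1 array lay above every replicate 2 array. The ratio of 3' to 5' Gapdh probe sets, a check of RNA integrity, lay between 0.809 and 0.841 on all arrays. All 10 melanocyte markers (Dct, Tyr, Pmel and others) were above the filter, with a summed signal of 41630 to 53298, against at most 100.3 for 7 leukocyte markers, 185 for 7 fibroblast, 44 for 5 keratinocyte and 51.6 for 5 endothelial markers. Macroh2a1 read 1212.7 and 1262.4 in the control line and 444.2 and 319.1 in the macroH2A1 shRNA line, a log2 difference of -1.67 (SE 0.17, limma). Macroh2a2 had signals of 2.0 to 11.9 over the arrays, below the filter of 10.4 in the mean, so the arrays do not check the knockdown of macroH2A2, and differences in that line rest on its label.

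None of the 34 replication genes passed the threshold in either macroH2A shRNA line, and most differed from the control line by little. The median log2 fold change over the 34 genes was 0.09 with macroH2A1 shRNA and 0.05 with macroH2A2 shRNA, where 25 and 20 of the 34 were higher than in the control line. Among all 27025 probe sets tested, 44.4% and 44.3% were higher in these comparisons, with medians of -0.03 in each. With Benjamini-Hochberg adjustment over all tested probe sets in limma, 0 of the 34 genes had an adjusted p under 0.05 when the control line was compared with macroH2A1 shRNA, with macroH2A2 shRNA or with their mean, or when the latter lines were compared with each other, and 0% of all tested probe sets did. With the replicate number as a block the count was again 0 of 34 in each, and the background share was 0.192%, 0.144%, 0.311% and 0.0037% in the same order. At an unadjusted limma p under 0.05 the 4 counts were 1, 0, 0 and 1, or 2, 0, 0 and 2 once the block was added, all from Cdk2 and Ccne2. Of all 27025 tested probe sets, 1189, 1075, 1217 and 739 were under it, or 2388, 2426, 2631 and 1711 with the block. The unadjusted counts given below for further gene lists have the same background. Among the 34 genes the smallest blocked adjusted p values in limma were 0.407, 0.618, 0.573 and 0.610. Each group had 2 arrays, and their small number limits the precision of these values. Even the targeted gene Macroh2a1, at -1.67 with macroH2A1 shRNA, had an adjusted limma p of 0.123 without the block and 0.0012 with it. A count of 0 without the block therefore says little about the 34 genes. Dropping macroH2A2 shRNA replicate 2 from the blocked fit leaves that line to its set 1 array. The median over the 34 genes was then 0.36 for macroH2A2 shRNA and 0.20 for the mean of both lines, and stayed at 0.09 for macroH2A1 shRNA. Some of the 34 genes passed the threshold in that fit, but the line rests on 1 array there, so these calls are not read. Single arrays also turned the sign of the medians. Without control replicate 1 they were -0.08 and -0.11, and without control replicate 2 they were 0.22 and 0.20. The macroH2A1 median was -0.05 without that line's replicate 2, and the macroH2A2 median was -0.10 without that line's replicate 1.

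The intervals show how large a change these arrays leave room for. The median standard error of a gene's log2 fold change was 0.21 in each line and 0.18 for the mean of both lines, and ranged from 0.11 for Cdk2 to 0.36 for Tyms in each line. The 95% limma interval lay within a 2-fold change in either direction for 32 of the 34 genes in the macroH2A1 shRNA line, the exceptions being Ccne2 and Fen1. It lay within 2-fold for 33 in the macroH2A2 shRNA line, with Uhrf1 the exception, and for all 34 in the mean of both lines. Within a 1.5-fold change lay 16, 18 and 22 genes. These intervals are per gene and are not adjusted for the number of genes.

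**Figure D1:**
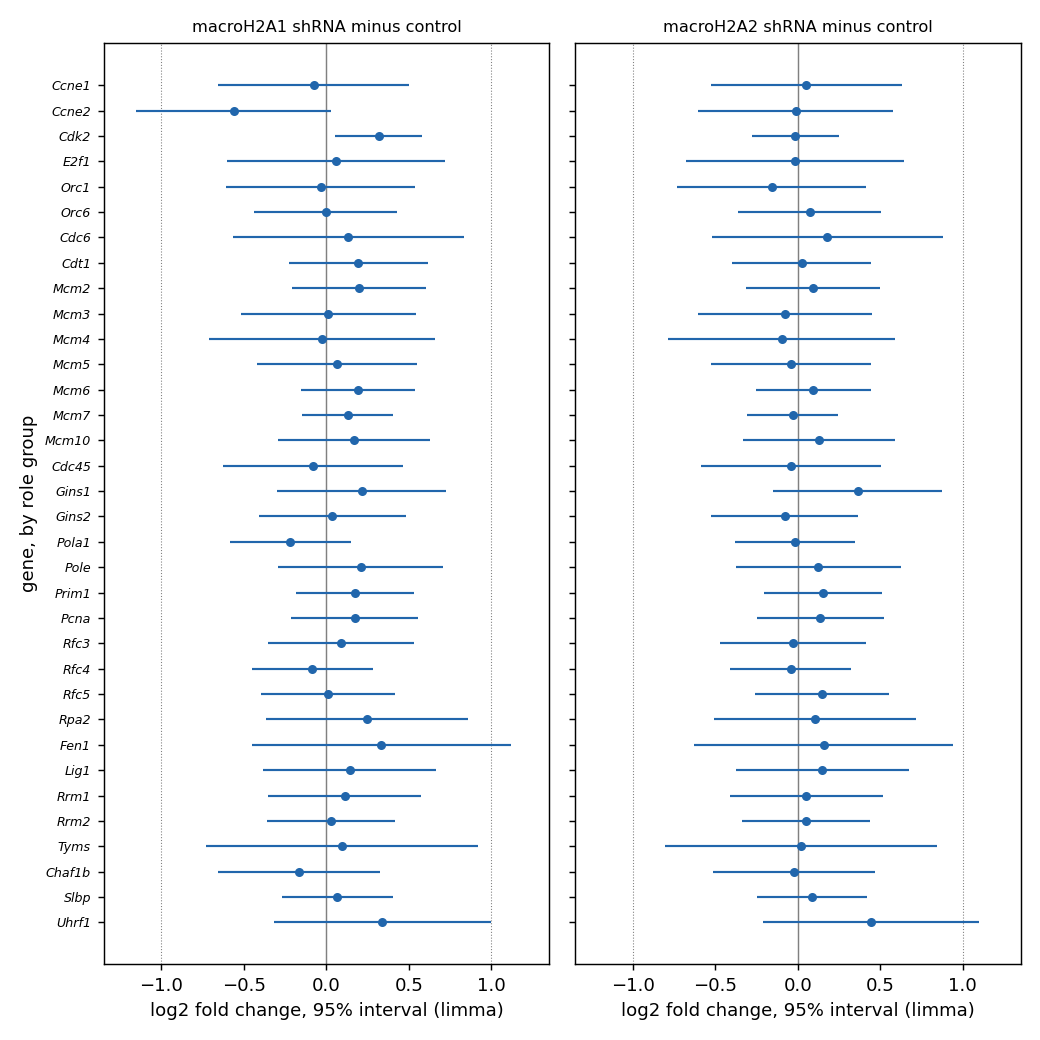
Log2 fold change of each of the 34 genes (point) with its 95% limma interval (line), for macroH2A1 shRNA minus control (left) and macroH2A2 shRNA minus control (right); genes are ordered by role and dotted lines mark a 2-fold change. In the left panel the interval of Cdk2 lies above 0 and those of Ccne2 and Fen1 reach past 2-fold, and in the right panel every interval includes 0.

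Groups of arrays that did not overlap were also counted. In the macroH2A1 shRNA line both arrays lay outside the control arrays for 5 of the 34 genes, higher for Cdk2, Mcm7 and Prim1 and lower for Ccne2 and Pola1, against 27.9% of all tested probe sets. In the macroH2A2 shRNA line this held for 0 of the 34 genes against 29.2%, so that in this line every one of the 34 genes had array values that overlapped those of the control line. For the mean of both lines it was 0 against 12.7%, and between the macroH2A2 and macroH2A1 shRNA lines it was 4 (Ccne2 and Pola1 higher, Cdk2 and Mcm7 lower in macroH2A2 shRNA) against 28%.

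Cdk2 and Ccne2, of the kinase and cyclins that open S phase, had the smallest p values of the 34 in the comparisons of macroH2A1 shRNA with control and with macroH2A2 shRNA, but not in the other comparisons. Cdk2, the kinase that cyclin E activates, had signals of 1631.6 and 1515.3 in the control arrays, 1916.1 and 2006.4 with macroH2A1 shRNA and 1522.4 and 1591.2 with macroH2A2 shRNA, replicate 1 first here and in all that follows. Both macroH2A1 shRNA arrays were higher than the other 4, which overlapped. The log2 difference was 0.32 (SE 0.11), a 1.24-fold level, for macroH2A1 shRNA and -0.01 for macroH2A2 shRNA, and the difference between both macroH2A shRNA lines was -0.33 (SE 0.11). Its unadjusted limma p was 0.024 against control and 0.020 between the macroH2A shRNA lines, and the adjusted p over all probe sets was 0.9999 and 1 in limma, so neither passed.

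Ccne2, which encodes cyclin E2, read 236.4 and 363 in the control arrays, 175.3 and 213.3 with macroH2A1 shRNA and 352.2 and 239.2 with macroH2A2 shRNA. The macroH2A1 shRNA arrays were the 2 lowest, and the control and macroH2A2 shRNA arrays overlapped. The log2 fold change was -0.56 (SE 0.26, 95% interval -1.15 to 0.03) for macroH2A1 shRNA and -0.01 for macroH2A2 shRNA. Its adjusted p for macroH2A1 shRNA was 0.9999 in limma, or 0.486 with the block. E2f1, the transcription factor of the group, read 157.6 and 196.2, then 139.6 and 241.1, then 212.5 and 141.4 in the same order of lines. The array ranges of the 3 lines overlapped, and the control arrays lay between those of each macroH2A shRNA line, with log2 fold changes of 0.06 and -0.02. Ccne1, which encodes cyclin E1, had log2 fold changes of -0.08 and 0.05 with signals between 161.5 and 258.5.

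The licensing factors and the MCM2-7 helicase had log2 fold changes from -0.04 to 0.20 with macroH2A1 shRNA, and from -0.16 to 0.18 with macroH2A2 shRNA, with 7 and 5 of the 10 genes higher. Mcm6, a helicase subunit, had signals of 1521.7 and 1736.2 in the control arrays, 1661.6 and 2076.2 with macroH2A1 shRNA and 1857.9 and 1624.3 with macroH2A2 shRNA. Mcm2, another subunit, read 947.8 and 1230.4, 1214.8 and 1268, and 1311.3 and 1009.5. Cdt1, which brings MCM2-7 to the origin, read 1528.8 and 2095, 1803.1 and 2329.6, and 1746.7 and 1896.5. In each of the 3 genes the lowest array was control replicate 1, and the groups overlapped. Their log2 fold changes were 0.19, 0.20 and 0.19 with macroH2A1 shRNA and 0.10, 0.09 and 0.02 with macroH2A2 shRNA.

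Mcm7 was the helicase gene whose macroH2A1 shRNA arrays did not overlap the controls, with 2005.8 and 2241.4 against 2269.6 and 2369.6, and 2191.6 and 1962.6 with macroH2A2 shRNA. The gap between the nearest arrays was small, and its log2 fold changes were 0.13 (SE 0.12) and -0.03. Mcm3 read 1098.6 and 1216.2, 1050.9 and 1292.4, and 1408 and 850.7. Mcm4 read 1417.9 and 1227.7, 1528 and 1096.1, and 1725.3 and 878.2. In both genes the macroH2A2 shRNA line held the highest array, replicate 1, and the lowest, replicate 2. The log2 fold changes were 0.01 and -0.08 for Mcm3 and -0.03 and -0.10 for Mcm4, and Mcm5, with -0.04 for macroH2A2 shRNA and 0.06 for macroH2A1 shRNA, had the same 2 extreme arrays, 2022.9 and 1277.9.

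Orc1, the largest subunit of the origin recognition complex, was dimmer, with 67.8 and 104.2 in the control arrays, 71.7 and 93.3 with macroH2A1 shRNA and 83 and 65.9 with macroH2A2 shRNA. Its log2 fold changes were -0.04 and -0.16. Orc6, a small subunit of the same complex, ranged from 549.3 to 775.5, with log2 fold changes of 0.00 and 0.07. Cdc6, the ATPase that loads MCM2-7 with Cdt1, read 173.3 and 293.6, 194.6 and 318.3, and 297.7 and 223.6. Its log2 fold changes were 0.13 and 0.18 with a standard error of 0.30, and replicates 1 and 2 differed within all 3 lines.

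Among the helicase activators Gins1, a GINS subunit, had the smallest p in the mean of both lines. Its signals were 283.3 and 411.2 in the control arrays, 354.9 and 447.9 with macroH2A1 shRNA and 500 and 394.4 with macroH2A2 shRNA. Control replicate 1 was the lowest array and macroH2A2 shRNA replicate 1 the highest, and control replicate 2 lay within the range of both macroH2A shRNA lines. It differed from control by 0.21 with macroH2A1 shRNA and 0.36 with macroH2A2 shRNA on the log2 scale (SE 0.22 each). Mcm10, which binds the helicase as it is activated, read 261.1 and 306.4, 268.8 and 380.1, and 330.3 and 292.6, with 0.17 and 0.13. Cdc45, the helicase cofactor, read 215 and 311, 207.2 and 286, and 280.6 and 224, with -0.08 and -0.04. For both genes the array ranges of the 3 lines overlapped. Gins2, a further GINS subunit, read 226 and 232.6, 242.7 and 227.9, and 257.3 and 181.6, with log2 fold changes of 0.03 and -0.08.

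The polymerase, primase, clamp and RPA genes were higher in 6 of 8 cases with macroH2A1 shRNA and in 5 of 8 with macroH2A2 shRNA. Prim1, the catalytic primase subunit, read 963.1 and 1137 in the control arrays, 1156.6 and 1210.9 with macroH2A1 shRNA and 1307.2 and 1035.6 with macroH2A2 shRNA. Its macroH2A1 shRNA arrays lay above both control arrays by a narrow margin, and its log2 fold changes were 0.17 and 0.15 (SE 0.15 each). Pcna, the sliding clamp, read 4174.6 and 5345.4, 4588.2 and 6173, and 5177.8 and 5208, with 0.17 and 0.14 (SE 0.17). Control replicate 1 was its lowest array and macroH2A1 shRNA replicate 2 its highest. Pole, the catalytic subunit of the leading-strand polymerase epsilon, read 172.3 and 254.3, 234 and 255.6, and 257.5 and 205.2, with 0.21 and 0.12.

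Pola1, the catalytic subunit of polymerase alpha, went the other way with macroH2A1 shRNA. It read 406.3 and 462.1 in the control arrays, 385.6 and 355.3 with macroH2A1 shRNA and 467.2 and 392.9 with macroH2A2 shRNA. The macroH2A1 shRNA arrays were the 2 lowest of the 6, for a log2 fold change of -0.22 (SE 0.16) there and -0.02 with macroH2A2 shRNA. The clamp loader subunits had small differences. Rfc4 read 899.5 and 1122.8, 919.1 and 975.4, and 1070.1 and 888, with -0.08 and -0.04. Rfc5 read 668.6 and 764.5, 672.5 and 770.2, and 919.7 and 685.4, with 0.01 and 0.15. In both, 1 macroH2A2 shRNA array was above every macroH2A1 shRNA array and the other was not. Rfc3 read 373 and 493.5, 403.1 and 517.8, and 442.5 and 398.6, with 0.09 and -0.03. Rpa2, a subunit of the single-strand binding protein RPA, ranged from 275.7 to 502.8, with 0.25 and 0.11 (SE 0.27).

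Fen1, the flap endonuclease that trims Okazaki fragments, had signals of 506.8 and 991.2 in the control arrays, 668.1 and 1205.7 with macroH2A1 shRNA and 789.7 and 796 with macroH2A2 shRNA. Replicate 1 was far below replicate 2 in the control and macroH2A1 shRNA lines, and the macroH2A2 shRNA arrays lay between. The log2 fold changes were 0.33 and 0.16 with a standard error of 0.34. Lig1, the ligase that seals the fragments, read 495.2 and 779.8, 609.3 and 775.5, and 741.2 and 643.2, with 0.14 and 0.15 (SE 0.23).

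Of the nucleotide genes, Rrm1, the large subunit of ribonucleotide reductase, read 1095.9 and 1331.2, 1114.6 and 1527.7, and 1440.8 and 1090.4, with log2 fold changes of 0.11 and 0.05. Rrm2, the small subunit, read 3114.5 and 3906.1, 3345.6 and 3783.5, and 4163.4 and 3138, with 0.03 and 0.05 (SE 0.17). In both, the array ranges of the 3 lines overlapped. Tyms, thymidylate synthase, was read by a dim probe set at 67.8 and 28.4, 54.2 and 44.4, and 62.8 and 32.4, with 0.09 and 0.02 (SE 0.36, the largest of the 34).

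Uhrf1, which recruits the maintenance DNA methyltransferase to replicating DNA, had the highest log2 fold change of the 34 genes in both shRNA lines. It read 661.7 and 1214.3 in the control arrays, 992.8 and 1307.1 with macroH2A1 shRNA and 1415.9 and 1060.4 with macroH2A2 shRNA. Control replicate 1 was lower than all other arrays, while control replicate 2 lay among the macroH2A shRNA arrays. On the log2 scale it was 0.34 above control with macroH2A1 shRNA and 0.44 with macroH2A2 shRNA (SE 0.28 each), the latter a 1.36-fold level, with adjusted p of 0.773 and 0.618 in the blocked limma fit. Chaf1b, a subunit of chromatin assembly factor 1, read 450.8 and 436.6, 322 and 479.6, and 494.5 and 385.8, with -0.17 and -0.02. Slbp, which binds the stem-loop of histone mRNA, read 1619.4 and 1828.6, 1642.6 and 1975.8, and 1979.5 and 1689.2, with 0.07 and 0.09. The array ranges of Chaf1b and Slbp overlapped between all lines.

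The clearest structure among these genes lay between the arrays of a line, and it differed by line. In the control line replicate 1 was lower than replicate 2 for 30 of the 34 genes, with a median log2 difference of -0.30, where 37.2% of all tested probe sets were lower and their median was 0.11. In the macroH2A1 shRNA line 29 of 34 were lower in replicate 1, with a median of -0.31, against 43.7% of all tested probe sets. In the macroH2A2 shRNA line the sign was turned: replicate 1 was higher than replicate 2 for 30 of 34, with a median of 0.33, against 53.7% of all tested probe sets. Each of these values compares 1 array with 1 array, so none has a test, and with 2 arrays a line the data do not tell which array of a line is typical of it.

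**Figure D2:**
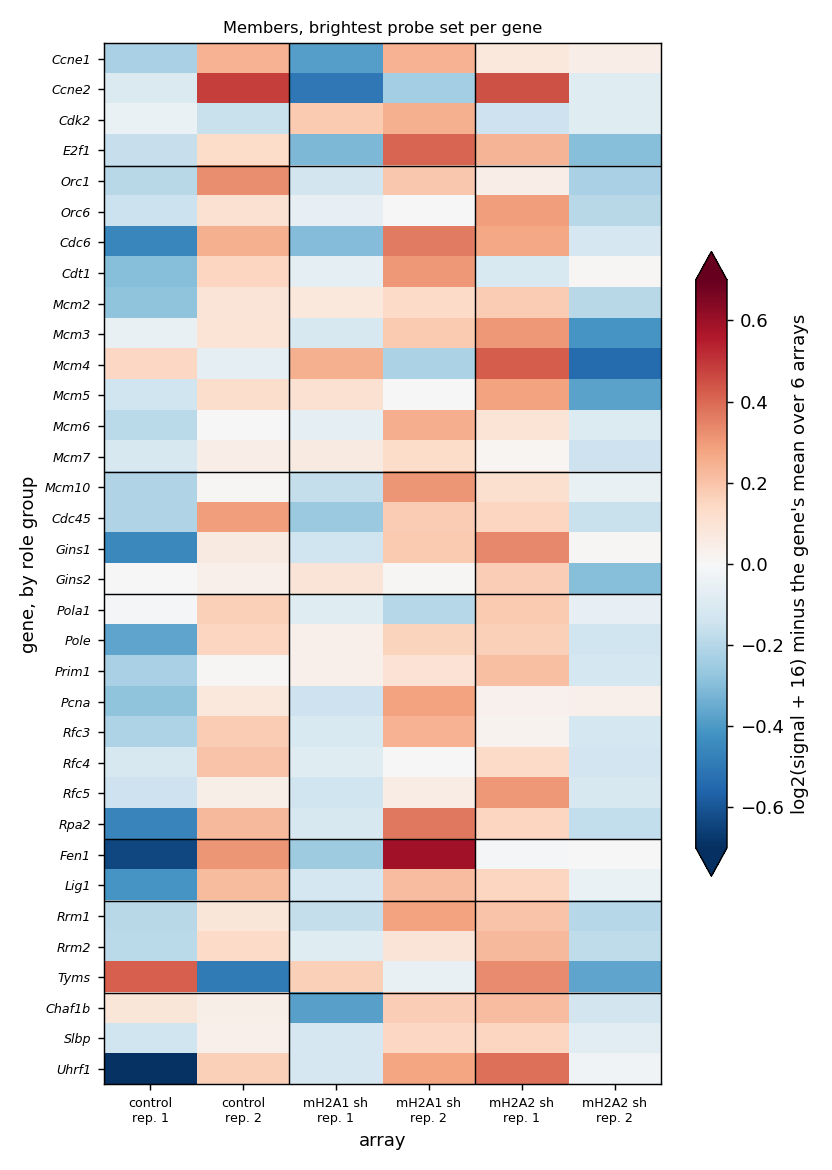
Log2(signal + 16) of each of the 34 genes on each of the 6 arrays, minus the gene's mean over the arrays; rows are grouped by role, and the arrowed ends of the colour scale take values beyond it. Most rows are blue in control replicate 1, macroH2A1 shRNA replicate 1 and macroH2A2 shRNA replicate 2 and red in the other arrays; Mcm4 and Tyms are among the rows that run otherwise.

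Comparing the lines within each replicate set therefore gave opposite signs for macroH2A2 shRNA. In set 1, 32 of the 34 genes were higher in the macroH2A2 shRNA array than in the control array, with a median log2 difference of 0.36, against 40.5% of all tested probe sets. In set 2, 32 of the 34 were lower, with a median of -0.28, against 48.2%. The same 32 genes were higher in set 1 and lower in set 2, a pattern shown by 18.6% of all tested probe sets, and 0 of the 34 were higher in both sets or lower in both. The other genes, Cdk2 and Tyms, were lower in set 1 and higher in set 2 by at most 0.12 in either set. Of these, Cdk2 has an E2F-like word in its promoter window and Tyms does not. Whether these words go with the set pattern was not tested. After quantile normalization 33 of the 34 were higher in set 1 (median 0.34) and 32 lower in set 2 (median -0.28). All these counts use the brightest probe set. Further tested probe sets of Slbp, Cdc45, Mcm3, Mcm5 and Mcm10, with mean signals of 10.8 to 85.4, were lower with macroH2A2 shRNA in both sets. Dim further probe sets of Gins1 and Mcm10 were lower in set 1 and higher in set 2. The remaining further tested probe sets of the 32 genes followed the pattern.

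Every role group took part. All 10 licensing and MCM2-7 genes were higher in set 1 (median 0.32) and lower in set 2 (median -0.33) with macroH2A2 shRNA, and so were all 4 helicase activators (0.34 and -0.20). The 8 polymerase, clamp and RPA genes had medians of 0.37 and -0.26, again without an exception. Uhrf1 had the largest difference in set 1, 1.08, with -0.19 in set 2. It was followed in set 1 by Gins1 with 0.79 (set 2 -0.06), Cdc6 with 0.73 (set 2 -0.37), Fen1 with 0.62 (set 2 -0.31) and Rpa2 with 0.61 (set 2 -0.40). The lowest values in set 2 were those of Ccne2, with 0.54 in set 1 and -0.57 in set 2, and Orc1, with 0.24 and -0.55.

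With macroH2A1 shRNA, compared with the same control arrays, the sets did not oppose each other in this way. The medians over the 34 genes were 0.10 in set 1 and 0.08 in set 2. Higher in both sets were 18 of the 34, among them Cdk2, Mcm2, Mcm6, Mcm7, Pcna, Fen1 and Uhrf1, against 24.4% of all tested probe sets. Lower in both were Ccne2, Cdc45 and Pola1, 3 of 34 against 31.6%, and 8 were higher in set 1 and lower in set 2 against 17.7%. Between the macroH2A shRNA lines, which do not involve the control arrays, 29 of the 34 were higher with macroH2A2 shRNA in set 1 and lower in set 2, against 22.1%, with medians of 0.27 and -0.30. Ccne2 and Pola1 were higher with macroH2A2 shRNA in both sets, and Cdk2, Cdt1 and Mcm7 lower in both. Whether the difference between macroH2A2 shRNA and control depends on the set was not tested, because each line has 1 array in a set.

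**Figure D3:**
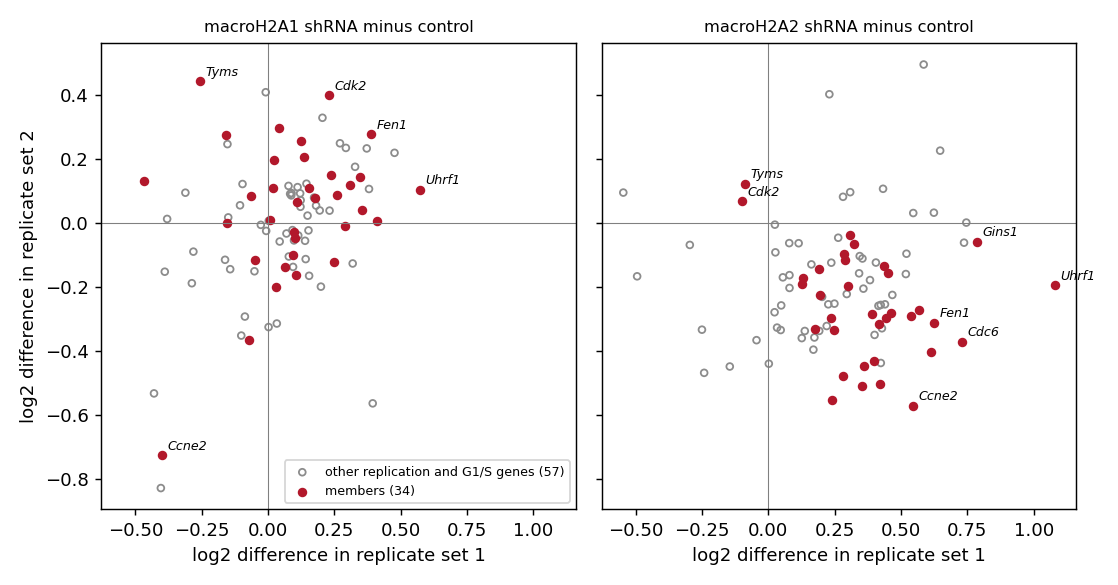
Log2 difference from the control array in replicate set 1 (horizontal) and in set 2 (vertical) for the 34 genes (filled) and 57 other replication and G1/S genes (open), with macroH2A1 shRNA on the left and macroH2A2 shRNA on the right. On the right 32 of the 34 filled points lie to the right of 0 and below 0, and on the left they spread over all 4 quadrants, with 18 higher in both sets.

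The highest and lowest arrays were counted as well. Control replicate 1 was the lowest of the 6 arrays for 17 of the 34 genes, against 15% of all tested probe sets, and macroH2A2 shRNA replicate 2 for 9, against 17.5%. The highest array was macroH2A2 shRNA replicate 1 for 15 genes, against 14.6%, and macroH2A1 shRNA replicate 2 for 13, against 15.1%. The median level of the 34 genes relative to each gene's mean was -0.19 and 0.11 on the control arrays, -0.11 and 0.18 on the macroH2A1 shRNA arrays and 0.18 and -0.13 on the macroH2A2 shRNA arrays. Over all tested probe sets that median was 0.09 on control replicate 1, the highest of the 6, where the 34 genes were at their lowest. That array also had the highest median signal of all probe sets, and each replicate 1 array had a higher median signal than any replicate 2 array. The part of either in the result was not tested. Across the 34 genes, the replicate 1 minus 2 differences of the control and macroH2A2 shRNA lines correlated with r = 0.38, although their medians have opposite signs. Over all tested probe sets r was 0.37. For control and macroH2A1 shRNA it was 0.62 against 0.58 over all, and for both macroH2A shRNA lines 0.48 against 0.42. These values describe genes that share arrays, scaling and replicate number.

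Other genes of replication followed the 34 in part. From a further list of replication and G1/S genes, 57 were tested, and 0 were called in any of the 4 comparisons, with or without the block, although 2, 1, 3 and 2 had an unadjusted limma p under 0.05 without it. With macroH2A2 shRNA 50 of the 57 were higher in set 1 (median 0.23) and 47 lower in set 2 (median -0.18). Both held for 41 (71.9%), against 18.6% of all tested probe sets. Of the 57, those with the smallest p in the mean of both lines were Asf1a, a histone chaperone, with a log2 fold change of 0.42, Orc4 with -0.34, Dck, deoxycytidine kinase, with 0.36, and Orc5 with 0.29. Asf1a read 615.3 and 748.5 in the control arrays against 801, 883.2, 931.3 and 1062.5 in the macroH2A shRNA arrays, all higher, with an adjusted limma p of 0.869, or 0.169 with the block.

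Genes of other cell cycle phases were set beside them. Of 36 genes of G2 and mitosis, 35 were tested (Ccnb1 was not found). With macroH2A2 shRNA 27 were higher in set 1 (median 0.16) and 27 lower in set 2 (median -0.14). Both held for 19 (54.3%), against 18.6% of all tested probe sets. In the 4 comparisons 0 of the 35 were called, and 1, 2, 2 and 1 had an unadjusted limma p under 0.05. Between the arrays of a line their median replicate 1 minus 2 difference was -0.04 in control cells, -0.13 with macroH2A1 shRNA and 0.32 with macroH2A2 shRNA. Nek2, a centrosomal kinase, had the highest log2 fold change in the mean of both lines, 0.59, and the lowest of the 35 was -0.36. Hmmr with 0.33, Mad2l1 with 0.19 and Aurkb with -0.19 were the others with the smallest p. Nek2 read 372.2 and 425 in the control arrays and 518 to 668.6 in the macroH2A shRNA arrays, with an adjusted limma p of 0.695, or 0.121 with the block.

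G1 control genes, the D-type cyclins, their kinases, inhibitors and pocket proteins, did not share the set pattern to that extent. Of 20 found, 17 were tested, since Cdkn1c, Cdkn2a and Cdkn2b were under the filter. Of these 17, 6 (35.3%) were higher in set 1 and lower in set 2 with macroH2A2 shRNA, against 18.6% of all tested probe sets. Ccnd2 had 0.26, Cdk4 -0.28, Rbl1 -0.18 and Cdk6 -0.24 in the mean of both lines, and 0 of the 17 were called in the 4 comparisons, with 2, 0, 0 and 1 at an unadjusted limma p under 0.05. Of the 10 melanocyte markers 0 were higher in set 1 and lower in set 2. Whether the differences between these lists exceed the spread between arrays was not tested.

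**Figure D4:**
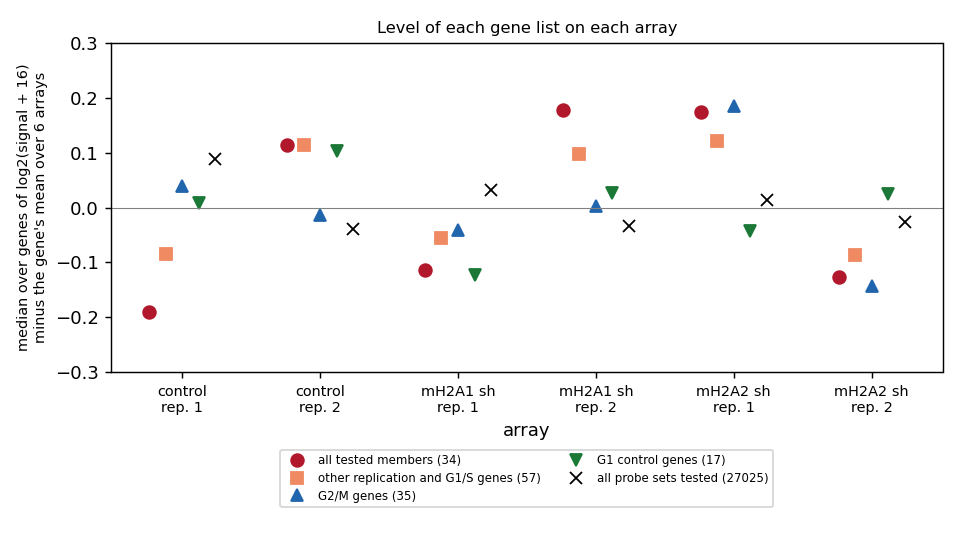
Median level of each gene list on each array, as log2(signal + 16) minus each gene's mean over the 6 arrays; symbols are the 34 genes, the other replication genes, genes of G2 and mitosis, G1 control genes and all probe sets tested, offset sideways for legibility. The 34 genes run from -0.19 on control replicate 1 to 0.18 on macroH2A1 shRNA replicate 2 and macroH2A2 shRNA replicate 1, while all probe sets stay between -0.04 and 0.09.

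The difference between the sets, averaged over the lines, was read from the blocked fit, which has a term for the replicate number. For these genes it averages over opposite signs. Their median replicate 1 minus 2 difference was -0.30 in control, -0.31 with macroH2A1 shRNA and 0.33 with macroH2A2 shRNA. For replicate set 1 minus set 2 over all lines, 3 of the 34 genes were called, a share close to the 9.85% of all tested probe sets. Mcm4 was higher in set 1 by 0.55 (SE 0.13, limma adjusted p = 0.025) and Tyms by 0.61 (SE 0.17, limma adjusted p = 0.045), and Fen1 was lower by -0.60 (SE 0.16, limma adjusted p = 0.040). The median over the 34 was -0.11, with 25 lower in set 1, against a median of 0.06 over all tested probe sets. That median of the 34 was -0.29 without either macroH2A2 shRNA array, and -0.007 without either control array. Cdt1 (-0.31) and Pcna (-0.26) followed in the fit of all arrays with adjusted limma p of 0.069 and 0.095. In Mcm4 set 1 was higher in every line, and in Fen1 the set 1 arrays were lower in the control and macroH2A1 shRNA lines and level in the macroH2A2 shRNA line.

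These set differences depend on the probe set. Mcm4 has a second tested probe set of nearly the same mean signal, 1240 against 1312 for the brightest, that read 941.1 and 1438.2 in the control arrays, 950.5 and 1522.4 with macroH2A1 shRNA and 1367.9 and 1220.7 with macroH2A2 shRNA. On it the set difference was -0.37 (limma adjusted p = 0.153), opposite in sign to the brightest. The second probe set of Fen1 gave -0.60 (limma adjusted p = 0.042), the same as the first, and that of Tyms gave -0.03. Slbp read -0.07 on its brightest probe set and 1.17 (limma adjusted p = 0.0014) on another of mean signal 85.4, and Cdc45 read -0.21 and 0.86 (limma adjusted p = 0.013), the latter at a mean signal of 29.

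Of the 34 genes, 24 had several tested probe sets, with 33 further probe sets in all. The further probe sets shared the sign of the brightest in 13 of 33 cases for set 1 minus set 2, in 20 for macroH2A1 shRNA, in 21 for macroH2A2 shRNA and in 17 for the mean of both lines. In the mean of both lines at least 1 further probe set opposed the brightest for Ccne1, E2f1, Cdt1, Mcm3, Mcm4, Mcm5, Mcm7, Mcm10, Prim1, Rrm2 and Slbp, each by values between -0.17 and 0.10. For Uhrf1 the second probe set gave log2 fold changes of 0.15 and 0.27 with macroH2A1 and macroH2A2 shRNA, for Gins1 0.12 and 0.07, and for Fen1 0.23 and 0.26, all of the same sign as the brightest. The brightest probe sets of Ccne1, Mcm4, Mcm5, Fen1 and Rrm2 carry the suffix _x_at, by which the array maker marks probes that may also match other transcripts, so their values are less certain.

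**Figure D5:**
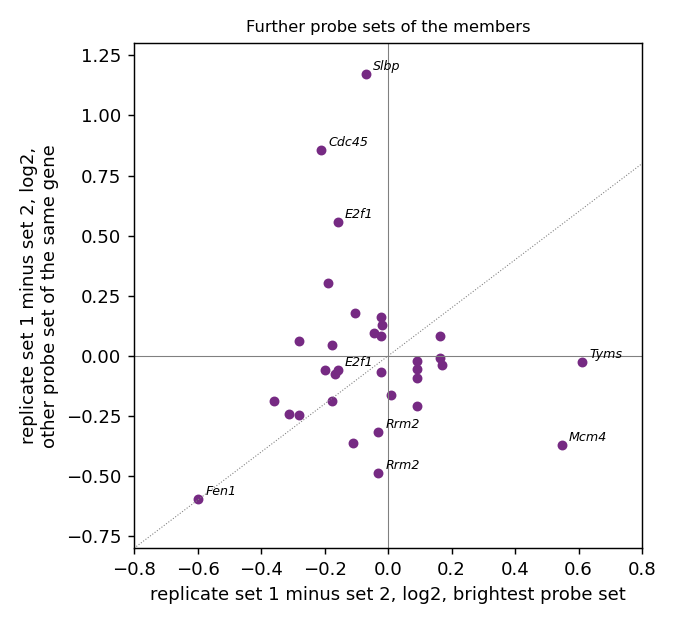
Log2 difference of replicate set 1 minus set 2 for the brightest probe set of a gene (horizontal) and for each of its 33 further tested probe sets (vertical); the dotted line marks equal values. Points in the upper left and lower right quadrants, among them Slbp, Cdc45 and Mcm4, are probe sets that oppose the brightest of their gene, and Fen1 lies on the line.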

How the data were processed

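Gene expression was measured on 6 one-colour arrays. The values deposited by the authors are signal intensities from MAS5, as named in the submitters' processing notes. Its version and the build are not given in the sources used here. All 64 control probe sets were left out. Groups and replicate numbers came from the sample titles.

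Tests used log2(signal + 16), which understates fold changes of dim probe sets. Probe sets with a mean signal at or above the 40th percentile, 10.4, were tested: 27025 of 45037. A limma 3.58.1 fit in R 4.3.3 (lmFit, eBayes with a trend) had 3 group means, 3 residual and 4.90 prior degrees of freedom, and 4 contrasts, with a two-sided Benjamini-Hochberg threshold of 0.05 over all tested probe sets. The script was tested on simulated data. With 2 arrays a line, p-values measure the spread between these arrays.

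Across all tested probe sets the replicate 1 minus 2 differences correlated with 0.576 (control and macroH2A1 shRNA), 0.372 (control and macroH2A2 shRNA) and 0.415 (both macroH2A shRNA lines). The labels do not say that a number marks a shared batch, so the block stayed an alternative (2 residual and 9.09 prior degrees of freedom).

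The genes and lists were chosen with earlier results of these data known. A few genes of the further lists are not reported here. All members are named. Array values are printed for up to 3 genes per role with the smallest p in the mean of both lines, up to 5 per direction in each contrast and all past the threshold; of other lists, up to 4 with the smallest p are named. Values for Cdc6, Rfc3 and second probe sets were added after they were seen. Alternatives were the block, the pseudocount, the filter, the scaling, all probe sets of a gene, and leaving out each array.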

Additional observations from a re-analysis of the deposited data

Results flagged for a closer look

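The median over the 34 genes had opposite signs in the replicate sets in 3 comparisons. For macroH2A2 shRNA minus control it was 0.36 in set 1 and -0.28 in set 2. For the mean of both macroH2A shRNA lines minus control it was 0.20 and -0.11. For macroH2A2 shRNA minus macroH2A1 shRNA it was 0.27 and -0.30. These comparisons share the macroH2A2 shRNA arrays, and the first and second share the control arrays, so they are not independent of each other. Each value compares single arrays, and the difference between the sets was not tested.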

How the results depend on the processing

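In the comparisons of control with macroH2A1 shRNA, with macroH2A2 shRNA and with their mean, and of macroH2A2 with macroH2A1 shRNA, the count of the 34 genes called by limma was 0 under each pseudocount, filter and scaling tried, with the mean over probe sets, and with the replicate block. Leaving out 1 array at a time gave 0 to 1, 0 to 4, 0 to 3 and 0 to 1 calls. The exception was the replicate block without macroH2A2 shRNA replicate 2, which gave 1, 4, 3 and 1: Ccne2 (-0.56) for macroH2A1 shRNA, Uhrf1, Gins1, Cdc6 and Fen1 for macroH2A2 shRNA, Uhrf1, Fen1 and Gins1 for the mean, and Ccne2 between the lines. There macroH2A2 shRNA rests on its set 1 array alone, assumed to vary like the others. In that fit Uhrf1, macroH2A2 shRNA minus control was 0.96.

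For replicate set 1 minus replicate set 2 the count of 3 became 0 without the filter (in the fit reported, 6 had an unadjusted limma p under 0.05), and 1 with the 60th percentile filter, with quantile normalization and with arrays centred on the median. It was 1 to 13 without 1 array, with 12 and 13 without macroH2A2 shRNA replicate 1 or replicate 2 and 1 without either control array. Leaving out either array of a line leaves the set difference to the other 2 lines. Without macroH2A2 shRNA these are control and macroH2A1 shRNA, whose median replicate 1 minus 2 differences share a sign (-0.30 and -0.31). What else shapes these counts was not tested. The result "Slbp, replicate set 1 minus replicate set 2" reversed, from -0.07 to 0.55 (limma adjusted p = 0.013), with the mean over its probe sets, 1 of which reads 1.17.

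The result "macroH2A1 shRNA minus control, median over members" moved from 0.09 to 0.071 with a pseudocount of 64, to 0.071 with quantile normalization without and with the replicate block, to 0.14 with arrays centred on the median and to 0.063 with the mean over probe sets. Without 1 array it ranged from -0.095 to 0.23: it was -0.077 without control replicate 1 (-0.095 with the block) and -0.051 (-0.068) without macroH2A1 shRNA replicate 2, while without macroH2A1 shRNA replicate 1 it was 0.22 (0.21). The result "macroH2A2 shRNA minus control, median over members" ranged from -0.24 to 0.36 without 1 array, 0.36 and -0.28 in replicate set 1 and set 2 alone, an alternative chosen after seeing the data. So 1 array decides the sign of both medians. Among all other values of genes 3125 kept direction and side of the threshold or moved within the spread, 257 moved further, 20 lost and 31 gained a call. Groups of 2 arrays and intensities without probe-level data limit what small differences can show.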
